A study of Caenorhabditis elegans with 12 samples.

Results

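Long intergenic noncoding RNA genes of Caenorhabditis elegans carry the names linc-1, linc-2 and so on, and small RNAs that match them were counted gene by gene in every library. All entries of the deposited tables whose locus name is linc- followed by a number were taken, which gave 244 features of 75227 in all. They belong to 141 linc genes and comprise 136 siRNA features, 107 features of 26G siRNAs and 1 entry, linc-171, that the tables class as a contaminant. For 103 genes both siRNA classes were listed, and 29 of the 170 linc genes in the annotation used here had no entry. As a class label, 7 of the 141 genes carried "Spermatogenic", 5 carried "Gender_neutral", linc-29 carried "WAGO,PRG1,Spermatogenic" and 128 carried none. The tables do not define these labels.

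The series holds 12 small RNA libraries from whole adult animals grown at 20 °C, in 7 groups. In the depletion experiment both strains carried wrdSi51 (II), in which the germline-active mex-5 promoter (mex-5p) drives the plant F-box protein TIR1, joined by F2A to mTagBFP2 with AID* and NLS tags and followed by the tbb-2 3'UTR. From the L4 larval stage until harvest as adults, both grew on 4 mM auxin. The depleted strain also carried GFP::tev::aid::attf-6 (I), in which the DNA-binding protein ATTF-6 bears an auxin-inducible degron, and the control did not, so that only the former loses ATTF-6 from cells with TIR1. Each strain gave 2 libraries prepared with PIR-1, a polyphosphatase that makes small RNAs with a 5′ triphosphate clonable beside those with a monophosphate, and 1 library prepared by CIP-TAP, which favours capped small RNAs. In the deletion experiment the parent strain carried attf-6::3xflag (I) and, by the treatment label, received no auxin. The protocol text of the labels mentions auxin for all samples, and the treatment label was followed here. The same allele was present in a pair of strains from which an interval of chromosome IV bound by ATTF-6 had been removed, 13709294 to 13709476 in ΔPeak1 and 14387943 to 14388536 in ΔPeak2, and each of these 3 groups gave 2 PIR-1 libraries. The PIR-1 replicates of the depletion were described as biological, and each CIP-TAP library as a single biological replicate. For the deletion strains the sources used here do not say whether replicates came from separate cultures, so p-values there measure the spread between these libraries, which may be technical. Summed counts ran from 15454564 to 31931330 in the PIR-1 libraries and by CIP-TAP were 11832193 for the control and 6352629 for the depleted strain.

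In C. elegans most endogenous siRNAs are made by RNA-dependent RNA polymerases that copy a target transcript. The abundant 22G siRNAs are bound by worm-specific Argonautes (the WAGO proteins and CSR-1) and carry a 5′ triphosphate. The rarer 26G siRNAs, bound by ERGO-1 in oocytes and embryos and by ALG-3 and ALG-4 in the spermatogenic germ line, act upstream and can lead to further 22G siRNAs on the same transcript. Noncoding transcripts can serve as templates as mRNAs do. Type I piRNAs, which ATTF-6 was studied for, are bound by PRG-1 and can set off 22G siRNA production on transcripts they match.

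A few genes held most of the siRNAs. Normalised counts, the count of a feature relative to a library constant set by the authors and multiplied by 1000000, summed to between 36975 and 54313 over all linc siRNA features of a PIR-1 library and to between 1601 and 3285 over all linc 26G features. The 6 most abundant siRNA features made up 84.3% to 86.5% of that siRNA sum. In contrast, the median linc siRNA feature had a mean of 0.362 over the 10 PIR-1 libraries, and 25 siRNA and 25 26G features stayed at 3 counts or fewer in all 12 libraries. The most abundant feature was the siRNA feature of linc-22 (WBGene00219699, chromosome X, 9069138 to 9073735, plus strand, 5 exons), with a mean of 17219. It was followed by the siRNA features of linc-29, linc-11, linc-8, linc-63, linc-7, linc-21, linc-45, linc-24 and linc-6, with means from 9513 down to 880. This order is that of a mean over strains that differ and to which the deletion experiment gives 6 of 10 libraries. In the depletion controls linc-8 (mean 3280) stood above linc-11 (2147), and after depletion linc-8 (6297) also stood above linc-29 (2570). The molecular roles of these transcripts are not annotated in the tables.

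Because linc-22 is long, its rank depends on length. Per kilobase of exon, linc-29 (WBGene00189951, chromosome IV, 6354024 to 6357243, plus strand, 3 exons) stood highest in the depletion controls and in the deletion experiment, with a mean of 15124 normalised counts per kb over the 10 PIR-1 libraries. After depletion it was at 4085 per kb, below linc-8 (7172), linc-22 (7092) and linc-21 (6572). In the mean over all 10 libraries the next 5 genes were linc-6 at 5056, linc-63 at 4909, linc-8 at 4860, linc-11 at 4583 and linc-22 at 4230 per kb. Among 38 genes with both classes and a summed mean of at least 5, siRNA exceeded 26G siRNA by a median of 19.7 times. In 3 of them, linc-12, linc-75 and linc-66, the 26G means of 50.7, 29.8 and 14.3 lay above the siRNA means of 40.2, 12.5 and 3.97. These means again pool strains. linc-66 had a siRNA to 26G ratio of 0.114 to 0.369 in the depletion experiment. The ratio was 0.444 and 0.833 in the parent, 2.0 in both ΔPeak1 libraries and 4.0 in ΔPeak2 replicate 2. These last ratios rest on few reads, as linc-66 lay at 0 to 1.77 for 26G siRNAs and 0.448 to 1.25 for siRNAs in the deletion experiment. linc-75 had a ratio of 1.65 in depleted replicate 1 and below 1 in the other PIR-1 libraries, and linc-36 had more 26G siRNA than siRNA in both depletion controls.

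Depletion of ATTF-6 moved linc small RNAs in both directions. Of 61 linc siRNA features tested, 16 rose and 18 fell, whereas among 12717 other siRNA features 10.7% rose and 56.1% fell. The median log2 fold change was 0.09 for linc siRNA features and −1.17 for other siRNA features, and these medians were 0.09 and −1.03 with features at 3 counts or fewer in a group set at their bound. Of 37 linc 26G features, 8 rose and 12 fell, against 11.7% and 26.4% of 6867 other 26G features, with medians of −0.07 and −0.43. Over all 33715 features tested, 12.7% rose and 54.6% fell. Calls rest on edgeR's quasi-likelihood test with Benjamini-Hochberg adjustment over all features at 0.05. The balance of directions depends on the scaling, since the median of all features was −1.39 with the authors' constant and −0.28 with TMM scaling (−1.59 when scaled to miRNA counts). Under TMM 30 linc siRNA features rose and 8 fell, against 30.0% and 32.5% of other siRNA features. Among linc 26G features 19 rose and 4 fell under TMM, against 36.1% and 7.56% of other 26G features. Scaling to miRNA counts gave 14 and 19 for linc siRNA features and 6 and 12 for linc 26G features. Without control replicate 2 the number of linc siRNA features that rose was 9, and without either control library the number of linc 26G features that rose was 5. Called in the same direction under all 3 scalings were 14 of the 16 siRNA features that rose and 8 of the 18 that fell. Among siRNA features with a mean of at least 100 in this experiment, 10 of 17 linc features rose and 5 fell, while 13.9% of 1121 other features rose and 64.9% fell.

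**Figure D1:**
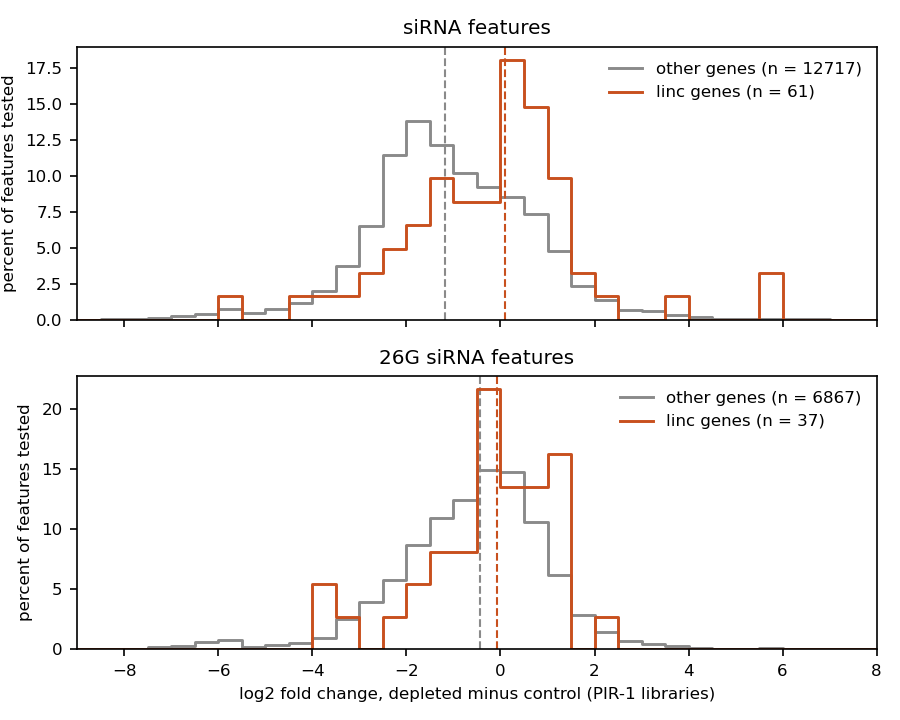
Histograms of log2 fold change, depleted minus control PIR-1 libraries, for linc genes (orange) and other genes (grey), as percent of features tested in bins of 0.5. Dashed lines mark the medians, 0.09 and −1.17 for siRNA features (61 and 12717) and −0.07 and −0.43 for 26G siRNA features (37 and 6867).

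Markers of the germ line moved with the depletion in the same libraries. Of 8 germline and embryo miRNAs on a fixed list (miR-35-3p to miR-42-3p), 7 had entries and all 7 fell, by 2.14 to 3.66 on the log2 scale, and their summed normalised count was 99948 and 96713 in the controls, compared with 16155 and 10904 after depletion. Type I piRNAs summed to 326582 and 389609 in the controls, compared with 11562 and 12892 after depletion. The paper reports that their expression requires ATTF-6, so their fall does not measure germ line content alone. The somatic miRNA let-7-5p was at 14748 and 12172 in the controls, compared with 16984 and 19892 after depletion (log2 fold change 0.45, edgeR adjusted p = 0.0558), and lsy-6-3p at 77.4 and 79.3 and at 36.6 and 78.2. These changes depend on the scaling. Under TMM the log2 fold changes ran from −2.53 to −1.03 for the 7 germline and embryo miRNAs. They were 1.60 for let-7-5p and 0.71 for lsy-6-3p. The part of these markers in the changes of linc siRNAs was not tested. The paper also reports germline atrophy in imaged animals after ATTF-6 depletion from the L4 stage. In counts from whole animals, fewer germ cells and less RNA per germ cell cannot be told apart.

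As a sum, linc siRNAs were 39353 and 36975 in the controls, compared with 54313 and 47069 after depletion. The depleted libraries lay above both controls, by 1.33-fold, but the exact two-sided permutation test gave p = 0.333, the smallest value that 2 libraries against 2 allow. Without linc-22 the sums were 22042 and 20134 in the controls and overlapped with 23997 and 19646 in the depleted libraries, a ratio of 1.03. As a share of all siRNA counts the linc features went from 3.94% and 4.18% to 7.73% and 8.64%. This share also depends on the other siRNA features, whose median log2 fold change was −1.17, so it does not measure linc siRNAs alone. linc-22 alone made up 44.0% and 45.5% of the linc siRNA sum in the controls and 55.8% and 58.3% after depletion. The linc 26G sum was 1601 and 1719 in the controls, compared with 1875 and 1761 after depletion (exact permutation p = 0.333).

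Several of the most abundant linc siRNA populations rose together. The siRNA count of linc-22 was 17312 and 16841 in the controls, compared with 30316 and 27424 after depletion, a 1.69-fold rise (log2 0.76 ± 0.08 SE, edgeR adjusted p = 0.000981). Its 26G count rose alike, from 429 and 412 to 746 and 732 (log2 0.81 ± 0.03, adjusted p = 0.00131). The linc-22 gene contains the snoRNA gene F47E1.19 on its own strand and a pair of piRNA loci on the other. With a control library left out, the siRNA call of linc-22 was lost (adjusted p = 0.0684 and 0.108 without control replicate 1 and 2). linc-8 (WBGene00219707, chromosome II, 2501838 to 2503802, minus strand) went from 3395 and 3165 to 6822 and 5772, a 1.92-fold rise with adjusted p = 8.23e-05 that became 0.0564 without control replicate 2. Its 26G counts of 212 and 229 (control) and 298 and 277 (depleted) did not pass the test (adjusted p = 0.152). linc-24 rose 1.90-fold, from 740 and 634 to 1496 and 1112 (adjusted p = 0.000204, and 0.0848 without control replicate 2). The 26G call of linc-22 was also lost without either control library (adjusted p = 0.0708 and 0.0995). Smaller populations of linc-15, linc-59, linc-14 and linc-30 siRNAs rose by 0.75 to 1.08 on the log2 scale, of which those of linc-15 and linc-59 were no longer called when scaled to miRNA counts.

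Neighbouring linc genes were among those that rose. Of 4 linc pairs at most 5 kb apart, 3 had both siRNA features tested. linc-41 (chromosome IV, 4241224 to 4241765) and linc-21 (4242086 to 4242466) lie 320 nt apart on the minus strand. The linc-41 siRNA count went from 582 and 480 to 1330 and 1269, a 2.45-fold rise (log2 1.29 ± 0.14, adjusted p = 1.97e-07), and linc-21 went from 977 and 760 to 2042 and 1717, a 2.16-fold rise (log2 1.11 ± 0.22, adjusted p = 6.02e-06). The pair on chromosome III, linc-19 (3150222 to 3151352) and linc-45 (3151809 to 3152607), lies 456 nt apart on the plus strand and rose in both members. linc-19 went from 321 and 299 to 736 and 647, and linc-45 from 763 and 731 to 1973 and 1660, with log2 fold changes of 1.16 ± 0.11 and 1.28 ± 0.13. In all 4 genes the 26G siRNAs rose as well, by 1.08 to 1.28 on the log2 scale, and each of these 8 calls was kept under TMM and miRNA scaling.

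The third pair moved apart. linc-17 (WBGene00219755, chromosome II, 3596226 to 3596812) and linc-68 (WBGene00219756, 3597516 to 3597914) lie 703 nt apart on the plus strand and were singled out after their values were seen. The linc-17 siRNA count went from 311 and 273 to 643 and 468 (log2 0.93 ± 0.25, adjusted p = 0.00026, and 0.0787 without control replicate 2). That of linc-68 went from 44.3 and 39.8 to 16.5 and 13.6, a 2.79-fold fall (log2 −1.48 ± 0.16, adjusted p = 3.7e-07) that TMM scaling no longer called (log2 −0.35). In neither gene did the control and depleted libraries overlap.

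**Figure D2:**
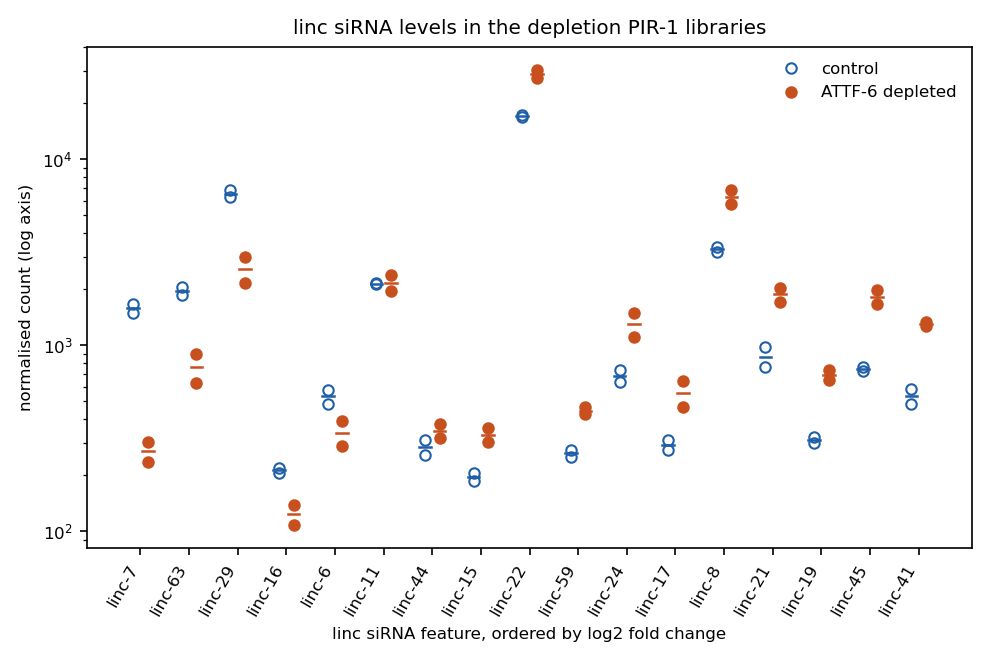
Normalised siRNA counts (log axis) of the 17 linc genes with a mean of at least 100 in the depletion experiment, ordered by log2 fold change; open blue circles are the 2 control and filled orange circles the 2 depleted PIR-1 libraries, and bars are means. linc-7 (1671 and 1491 against 301 and 236) stands at the left end, the libraries of linc-11 overlap and linc-41 (582 and 480 against 1330 and 1269) stands at the right end.

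Other abundant linc siRNAs fell. linc-29, the gene with the class label WAGO,PRG1,Spermatogenic, was at 6802 and 6273 in the controls, compared with 2974 and 2165 after depletion, a 2.54-fold fall (log2 −1.35 ± 0.24, adjusted p = 1.56e-08). linc-63 (WBGene00219725, chromosome I, 3870642 to 3871267, minus strand) went from 2065 and 1869 to 898 and 624, a 2.58-fold fall (log2 −1.37 ± 0.27, adjusted p = 2.5e-08). Both falls were close to the median of other siRNA features, and neither was called under TMM scaling (log2 −0.22 and −0.25). linc-6, which is 174 nt long, went from 578 and 485 to 390 and 286 (log2 −0.65 ± 0.26, adjusted p = 0.0109), a call that leaving out either control library or depleted replicate 2 ended (adjusted p = 0.261, 0.0834 and 0.0994) and that TMM scaling turned into a rise (log2 0.47). The siRNAs of linc-11 (WBGene00219758, chromosome II, 3373169 to 3374185, minus strand) overlapped between groups, with 2168 and 2126 in the controls, compared with 2374 and 1955 after depletion (log2 0.01 ± 0.14, adjusted p = 0.968). Under TMM scaling linc-11 was called higher (log2 1.14).

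The deepest falls were in less abundant genes. linc-121 (WBGene00194923, chromosome IV, 14934821 to 14937128, minus strand) lies in a piRNA-rich stretch with 65 counted type I piRNA loci within 10 kb, and it overlaps the piRNA locus 21ur-5663 on its own strand. Its siRNA count was 77.0 and 83.2 in the controls, compared with 2.89 and 6.05 after depletion, a 17.9-fold fall (log2 −4.18 ± 0.48, adjusted p = 6.31e-36). Its 26G count fell as well, from 1.91 and 3.82 to 0.207 and 0.242, where each depleted library had 1 count (adjusted p = 0.000142). In linc-12 (WBGene00219687, chromosome II, 2681408 to 2681658) the siRNAs went from 18.6 and 15.3 to 1.65 and 1.69 and the 26G siRNAs from 25.6 and 40.2 to 2.89 and 2.66, falls of 10.1-fold and 11.8-fold. linc-75 (WBGene00219685, chromosome X, 1791722 to 1792573) showed the largest drop in 26G siRNAs, from 25.2 and 21.6 to 1.76 and 1.94 (log2 −3.70 ± 0.12, adjusted p = 4.61e-20), and its siRNAs went from 11.6 and 10.6 to 2.89 and 1.82. These falls in linc-121, linc-12 and linc-75 were called under all 3 scalings. The siRNAs of linc-52 were at 0 in both depleted libraries, so they entered the fit only through the controls, which set their direction. The siRNAs of linc-52, linc-140 and linc-37 fell from control values of 0.674 to 3.63 to 0 or near it, by at least 2.01-fold in linc-52. Without control replicate 1 none of these last 3 was called (adjusted p = 0.16, 0.234 and 0.0672), linc-140 was not called without depleted replicate 1 either (0.0526), and TMM scaling called neither linc-140 nor linc-37. The other siRNA features that fell (linc-40, linc-66, linc-154, linc-81, linc-93, linc-91 and linc-16) did so by 0.78 to 2.15 on the log2 scale.

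Among features above the floor in the controls, the largest rise was in linc-36 (WBGene00219694, chromosome IV, 5380408 to 5381217, minus strand), which has 18 counted type I piRNA loci within 10 kb and overlaps the piRNA loci 21ur-9599 on its own strand and 21ur-10367 on the other. Its siRNA count was 8.40 and 6.74 in the controls, compared with 132 and 102 after depletion, 15.4-fold higher (log2 3.92 ± 0.24, adjusted p = 1.00e-37). Its 26G siRNAs went the other way, from 36.4 and 45.8 to 24.8 and 19.6 (log2 −0.88 ± 0.23, adjusted p = 0.00221). This 26G call was lost without control replicate 2 (adjusted p = 0.12) and the direction turned under TMM scaling (log2 0.25). The ratio of siRNA to 26G counts within a library does not depend on scaling. In linc-36 it was 0.231 and 0.147 in the controls, compared with 5.31 and 5.20 after depletion. Of the low features that rose, linc-65 siRNAs went from 2.93 and 2.25 to 10.3 and 7.75 (log2 1.77 ± 0.25, adjusted p = 1.58e-05). linc-82 and linc-147, at 0 in both controls, reached 1.65 and 0.968 and 1.86 and 0.484, at least 2.48-fold and 2.22-fold higher. Both entered the fit, which needs a mean of 0.5 over its libraries, only through the depleted libraries. Their direction was thus set by that filter, and their calls are no separate support for a rise. The linc-147 call was lost without control replicate 1 or depleted replicate 1.

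linc-7 moved the other way in both classes. This gene (WBGene00219609, chromosome X, 16002599 to 16003728, plus strand, 1 exon) lies within the protein-coding gene C09G1.4 on the opposite strand, without overlap of exons. Its siRNA count fell from 1671 and 1491 to 301 and 236 (5.89-fold, log2 −2.56 ± 0.19, adjusted p = 1.12e-23), while its 26G count rose from 25.5 and 26.7 to 61.8 and 75.3 (2.63-fold, log2 1.39 ± 0.15, adjusted p = 3.89e-07). Both calls held under TMM and miRNA scaling. Within a library the siRNA to 26G ratio of linc-7 was 65.7 and 55.8 in the controls, compared with 4.87 and 3.14 after depletion.

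Across the 36 genes tested in both classes, both classes rose in 6, both fell in 9 and they were called in opposite directions in 3 (linc-7, linc-36 and linc-17), while 10 genes were called in 1 class and 8 in neither. Among 6814 other genes tested in both classes, 5.0% rose in both, 24.8% fell in both and 2.8% were opposite. The linc-17 26G siRNAs went from 57.3 and 74.8 to 46.9 and 38.2 (log2 −0.63 ± 0.24, adjusted p = 0.0239). That call was lost without either control library or depleted replicate 2 (adjusted p = 0.0763, 0.374 and 0.101) and turned into a rise under TMM scaling (log2 0.50). In linc-11, 26G siRNAs fell from 241 and 280 to 170 and 153 (log2 −0.69 ± 0.13, adjusted p = 0.0083) beside siRNAs that overlapped between groups; this call too was lost without either control library (adjusted p = 0.073 and 0.212) and turned under TMM (log2 0.44).

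**Figure D3:**
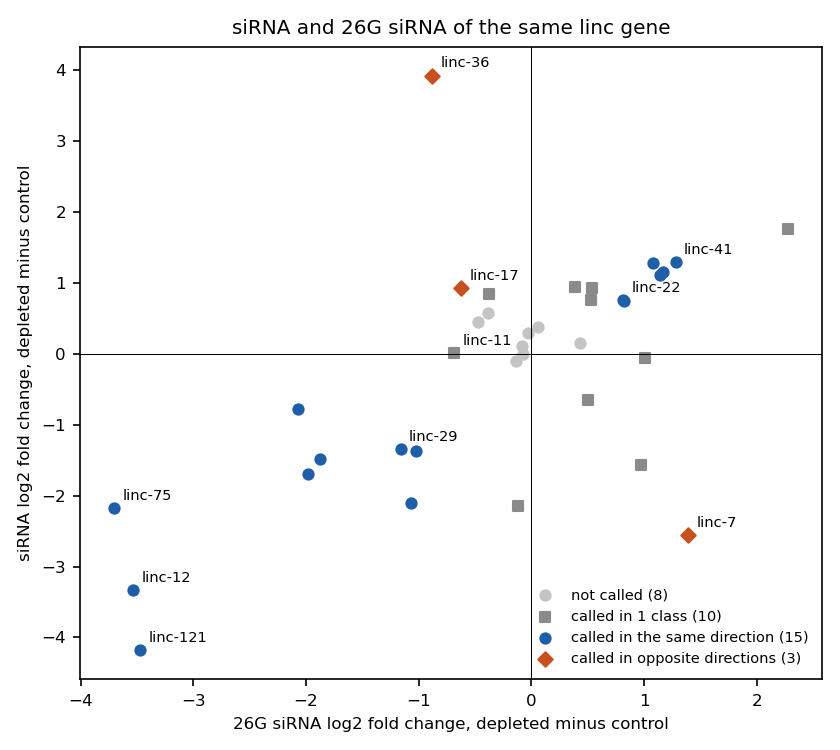
Log2 fold change after depletion of 26G siRNAs (horizontal) and siRNAs (vertical) for the 36 linc genes tested in both classes, 1 point per gene. Blue circles are the 15 genes called in the same direction and orange diamonds the 3 called in opposite directions, with linc-36 at 3.92 and linc-7 at −2.56 on the vertical axis.

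Calls in both directions occurred on every chromosome and under the labels with several genes. Of the 5 tested genes labelled Gender_neutral 2 rose and 1 fell, of the 6 labelled Spermatogenic 1 rose and 2 fell, and of the 49 with no label 13 rose and 14 fell. On chromosome III 5 of 11 tested siRNA features rose and 2 fell, and on chromosome X 2 of 13 rose and 5 fell. Over all 61 linc siRNA features tested, 16 rose and 18 fell. These counts were not tested against each other, and other features were not counted by chromosome or label. Of 6 linc genes with at least 10 counted piRNA loci within 10 kb, only linc-121 and linc-36 had a tested siRNA feature; their opposite changes were noticed after values were seen and were not tested against other genes.

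CIP-TAP cloning, with 1 library per strain, gave a second view of the same depletion and allows no test. It favours capped small RNAs, so its siRNA counts may not stem from the same molecules as those of the PIR-1 libraries. Of 86 linc siRNA features above 3 counts in either library, 9 were more than 4-fold higher and 11 more than 4-fold lower after depletion with Poisson intervals that did not overlap, against 7.37% higher and 28.8% lower among 12995 other siRNA features. Scaled to all counts of a library in place of the authors' constant, 22 linc siRNA features were higher and 4 lower past this limit. Other siRNA features were not counted under that scaling. Of 69 linc 26G features 7 were higher and 4 lower past this limit, against 13.3% and 12.7% of 8055 other 26G features. The linc siRNA sum of the control library was 39583 and that after depletion 26105 (log2 ratio −0.60), lower after depletion where the PIR-1 sums were higher, and without linc-22 it was 33026 and 16138. The median log2 ratio of siRNA features was 0.17 for linc and −1.15 for other siRNA features. Of the linc siRNA features called in the PIR-1 libraries and seen here, 15 of 15 that rose were higher and 16 of 17 that fell were lower. Matching counts were not made for other siRNA features, so these counts do not show a trait of linc genes. All intervals cover counting error alone.

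By CIP-TAP linc-29 was the most abundant in the control, at 21788 (95% interval 21659 to 21917), and stood at 5358 (5285 to 5432) after depletion, 4.07-fold lower. linc-22 went from 6557 to 9967, 1.52-fold higher, and linc-8 from 2342 to 3974. linc-7 siRNAs went from 3243 to 380, 8.53-fold lower (8.09 to 9.01), and linc-63 from 1632 to 575. The rise of linc-36 appeared again, from 15.9 to 142, 8.94-fold higher (7.06 to 11.5). linc-121 had 50 counts in the control library and a count of 0 after depletion, at least 12.6-fold lower, and linc-12 went from 146 counts to 10 (interval of the normalised fall 5.82-fold to 23.5-fold). The 26G siRNAs of linc-7, which rose in the PIR-1 libraries, were lower in the depleted CIP-TAP library, at 35.9 in the control and 10.8 after depletion (3.33-fold lower). linc-72, singled out after its values were seen, was at 0 in all 10 PIR-1 libraries and had 1 count in the control and 51 counts in the depleted CIP-TAP library (ratio 67.6, interval 11.6 to 2721).

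**Figure D4:**
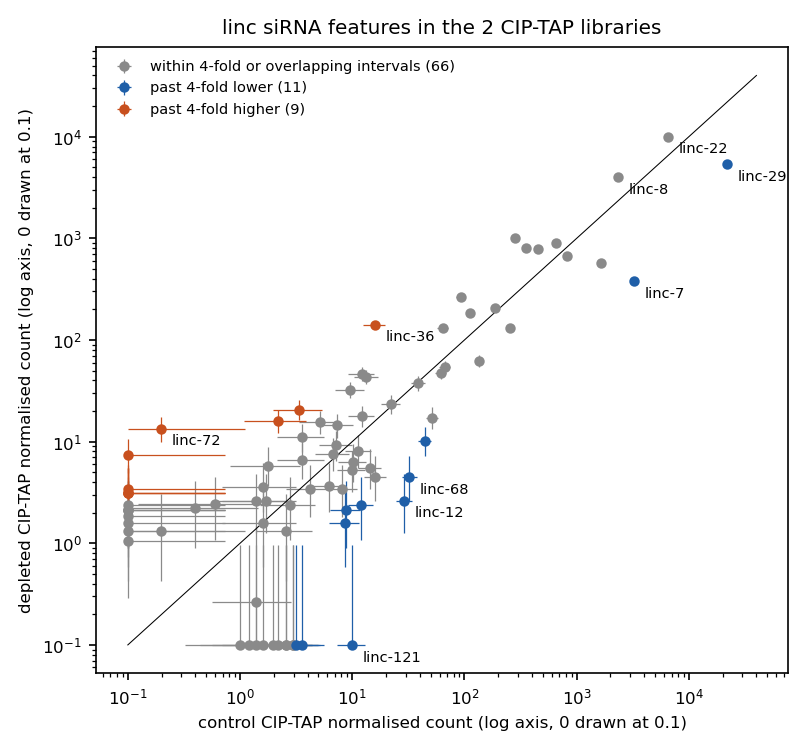
Normalised counts of the 86 linc siRNA features above 3 counts in either CIP-TAP library, control (horizontal) against depleted (vertical), log axes, with exact 95% Poisson intervals; values of 0 are drawn at 0.1 and the line marks equality. Orange points are 9 features past 4-fold higher, among them linc-36 (15.9 and 142), and blue points are 11 past 4-fold lower, among them linc-29 (21788 and 5358) and linc-7 (3243 and 380).

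Within the control strain linc genes ranked differently by the 2 cloning methods, whose library constants may not be alike. linc-29 was 3.33 times as abundant in the CIP-TAP library as in the mean of both control PIR-1 libraries, and linc-7 siRNAs 2.05 times. linc-22 and linc-21 were lower by CIP-TAP, at 0.384 and 0.327 times, and linc-15 at 0.0678 times. Over 51 linc siRNA features the median ratio was 0.769, and over 10703 other siRNA features it was 1.05. Above 3 counts in the CIP-TAP library and at 3 or fewer in both PIR-1 libraries were 18 of 136 linc siRNA features (13.2%) and 34 of 107 linc 26G features (31.8%), none with more than 88 counts, against 4.7% and 13.2% of other features of each class. The reverse, above 3 counts in both PIR-1 libraries and at 3 or fewer by CIP-TAP, held for 4 (2.94%) and 7 (6.54%) linc features and for 7.52% and 15.3% of other features. The contaminant entry linc-171 (WBGene00236800, chromosome I, 10174455 to 10175591), classed as ncRNA, was at 161 in the control CIP-TAP library, 198 times its PIR-1 control mean, and at 262 in the depleted CIP-TAP library. In the PIR-1 libraries it was at 0.449 and 1.18 in the controls, compared with 3.38 and 1.84 after depletion (adjusted p = 0.0108, and 0.207 without control replicate 1 and 0.19 without depleted replicate 1). Other named noncoding RNAs in the contaminant class, tts-1 and rncs-1, were also higher by CIP-TAP, at 88.5 and 1666 in the control library against 2.81 and 2.40 and 405 and 361 in the PIR-1 controls. lep-5, a lincRNA gene without a linc name, had siRNAs at 9.16 and 6.97 in the controls, compared with 13.6 and 10.4 after depletion (adjusted p = 0.112).

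Deletion of single ATTF-6 binding sites left linc small RNAs without a call. Of 96 linc features tested, 0 were called in ΔPeak1, in ΔPeak2 or between both deletions, where edgeR called 0.149%, 0.308% and 0.197% of all 31462 features. At an unadjusted p under 0.05 there were 7, 12 and 3 of the 96 linc features, against 1629, 2977 and 1512 of all 31462 features. DESeq2 also called 0 among the linc features to which it gave an adjusted p, which 40, 41 and 33 of the 96 lacked. For the 25 linc features with a group mean of at least 100, log2 fold changes ran from −0.03 to 0.37 in ΔPeak1 and from −0.10 to 0.42 in ΔPeak2. The ΔPeak1 and ΔPeak2 comparisons share the parent libraries. linc siRNA sums were 48323 and 49583 in the parent, 53443 and 51908 in ΔPeak1 and 52418 and 50074 in ΔPeak2, above the parent in all 4 libraries (exact permutation p = 0.333 for each deletion). The linc 26G sums were 2521 and 3052 in the parent, 3000 and 3285 in ΔPeak1 and 3191 and 3259 in ΔPeak2 (exact permutation p = 0.667 and 0.333). Between both deletions the smallest p was that of linc-61 siRNAs, at 42.9 and 31.8 in ΔPeak1 and 21.3 and 25.7 in ΔPeak2 (edgeR adjusted p = 0.869).

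The linc gene nearest to either deletion is linc-121, 1225345 nt from the first and 546285 nt from the second interval. Its siRNA count was 400 and 487 in the parent, 568 and 580 in ΔPeak1 and 586 and 498 in ΔPeak2, so all 4 deletion libraries lay above the parent. The log2 fold change was 0.37 ± 0.14 in ΔPeak1 (unadjusted p = 0.0163, edgeR adjusted p = 0.854), the smallest p of any linc feature in that comparison. linc-27 siRNAs came next, at 0.590 and 0.2505 in the parent and 1.89 and 1.68 in ΔPeak1 (adjusted p = 0.888). In ΔPeak2 the smallest p-values belonged to 26G features of linc-66, at 1.77 and 1.503 in the parent and 0 and 0.218 in ΔPeak2 (adjusted p = 0.258), and of linc-15, at 5.11 and 4.01 in the parent and 10.1 and 8.94 in ΔPeak2 (adjusted p = 0.379).

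**Figure D5:**
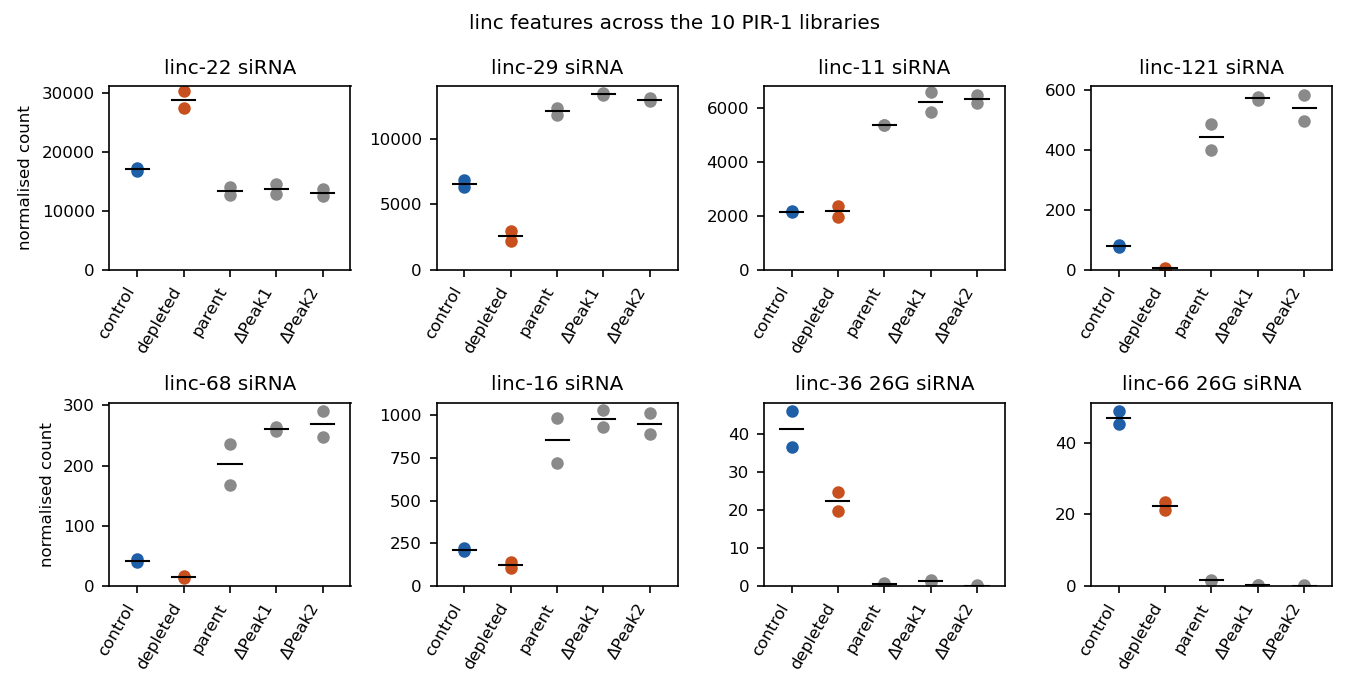
Normalised counts of 8 linc features in the 5 PIR-1 groups, 2 libraries each (points) with their mean (bar), on linear axes from 0. linc-121 siRNAs stand at 77.0 and 83.2 in the control and at 2.89 and 6.05 after depletion. In the 6 libraries of the deletion experiment (parent, ΔPeak1 and ΔPeak2) they stand at 400 to 586. The 26G siRNAs of linc-36 and linc-66 are near 0 in those 6 libraries, the parent included.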

How the data were processed

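Small RNAs were sequenced from whole adults in 12 libraries. The authors trimmed reads with Trim Galore and aligned them to the WormBase WS279 genome with Bowtie, allowing 0 mismatches and up to 100 places. The rule that assigned reads to siRNA or 26G features is not given in the sources used here, and no strand is asserted. The deposited estimated counts per feature can be fractions (20 linc siRNA and 16 linc 26G features had one in some library), and genes that overlap others on the same strand, such as linc-16 and fbxa-3 or linc-59 and a pseudogene, may share reads. The deposited normalised signal is the count divided by 1 constant per library (3804460 to 7857706), set by the authors, times 1000000. Summed counts were 1.67 to 4.06 times this constant.

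After rounding of the counts, the quasi-likelihood test of edgeR 4.0.16 (R 4.3.3) was run with the authors' constant as library size. A feature entered a fit when its normalised count averaged 0.5 or more over that fit's libraries. A feature at 0 in 1 group could therefore enter through the other group alone, as linc-52, linc-82 and linc-147 siRNAs did in the depletion. Of the linc features, 75 siRNA and 70 26G features did not reach this in the depletion fit. P-values were adjusted over all kept features (Benjamini-Hochberg, 0.05). The SE beside a log2 fold change is that of the library values of log2(normalised count + 0.5). A group with 3 counts or fewer in every library is at the floor. Folds against a group with 0 counts in every library are bounds computed from 3 counts per library, and a CIP-TAP ratio against 1 to 3 counts is printed with its interval. CIP-TAP values carry exact 95% Poisson intervals, and ratios carry exact conditional binomial intervals. Summaries used Python 3.11.15 and scipy 1.17.1. The edgeR step was tested on simulated data. Annotation came from Ensembl release 115 (WBcel235), matched by gene identifier for all 141 genes, whose coordinates are printed from it. No build is named for the deletion coordinates.

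Members, gene lists and tests were chosen with earlier results of these data known. Named features were the 10 with the highest mean over the PIR-1 libraries, the 10 called higher and 10 called lower after depletion with the largest change and no overlap between groups, up to 5 called in each direction per deletion or else the 2 with the smallest p, the 5 highest in each CIP-TAP library and those nearest the deletions; others (26G or siRNA entries of the same genes, linc-16, linc-17, linc-66, linc-68, linc-72 and linc-128 among them) were chosen after values were seen. Alternatives were TMM, miRNA or summed-count scaling, DESeq2 1.42.0, other filters, a replicate block, all 10 PIR-1 libraries in 1 fit, removal of the most abundant linc feature and leaving out each library. Of the fixed marker list, miR-42-3p, miR-1-3p, miR-124-3p and lin-4-5p were not analysed here, and neither were linc nucleotide sequences.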

Additional observations from a re-analysis of the deposited data

How the results depend on the processing

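In the depletion, filtering at a mean of 5 or not at all, fitting all 10 PIR-1 libraries together and scaling to miRNA counts left each count of linc calls within 1.5 times. With DESeq2, 25 linc siRNA features were higher and 4 lower, against 19.3% and 25.5% of other siRNA features. It called 12 linc 26G features higher and 3 lower, against 22.5% and 2.26% of other 26G features. With TMM scaling the linc counts were 30 and 8 for siRNA and 19 higher and 4 lower for 26G. With 1 library left out, the counts were 9 to 16 higher and 12 to 19 lower for siRNA and 5 to 9 higher and 9 to 12 lower for 26G. Directions of 26G features turned under TMM scaling in linc-66 (0.062), linc-36 (0.25), linc-63 (0.093), linc-11 (0.44) and linc-17 (0.50), and those of siRNA features in linc-6 (0.47), linc-16 (0.34) and linc-91 (0.065). Under DESeq2 they turned in linc-36 (0.15), linc-11 (0.36) and linc-17 (0.41) for 26G and in linc-6 (0.39) and linc-16 (0.26) for siRNA. Replicate numbers share no stated origin. The correlation of same-numbered deviations was 0.32 in the depletion and −0.11 to −0.04 in the deletion experiment, and a replicate block gave 19 linc siRNA features higher and 18 lower and 11 and 12 for 26G, and called 0 linc features in each deletion comparison. Scaled to miRNA counts, the log2 ratio of linc siRNA sums turned to −0.12 in ΔPeak2, and that of linc 26G sums to −0.075 in the depletion and −0.14 between deletions. The last was also −0.045 without its most abundant feature, linc-11, and −0.026 to 0.10 with 1 library left out. In CIP-TAP, scaling to all counts gave 22 siRNA features past 4-fold higher and 4 lower, and log2 ratios of −0.11 for the siRNA and 0.65 for the 26G sum, and removing linc-22 gave −1.03 for siRNA. For all of these the cause was not tested. With 2 libraries per group and a floor of 3 counts, a normalised count of 0.382 to 0.789, changes in the lowest linc features were not detectable at this depth.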

Other observations

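The control strain of the depletion experiment and the parent strain of the deletion experiment differ in genotype, experiment and, by the treatment label, auxin. No comparison between them was designed, so their values are given with no test. siRNAs of linc-121 were at 77.0 and 83.2 in the control and at 400 and 487 in the parent. linc-68 siRNAs were at 44.3 and 39.8 in the control and 168 and 236 in the parent, and those of linc-16 (WBGene00219728, chromosome II, 1820242 to 1820946, minus strand), which shares exon sequence with fbxa-3, were at 220 and 206 and at 722 and 982. The 26G siRNAs of linc-11 were at 241 and 280 in the control and 892 and 1120 in the parent. In these genes the groups did not overlap and the parent was higher.

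The opposite order was seen, among others, in linc-36 and linc-66, whose 26G siRNAs were near the floor in the deletion experiment. It was not confined to such genes, as linc-59 siRNAs were at 273 and 251 in the control and 160 and 178 in the parent. Neither order was counted over all features. linc-36 26G siRNAs were at 36.4 and 45.8 in the control, and between 0 and 1.68 in the 6 libraries of the deletion experiment. Those of linc-66 (WBGene00219667, chromosome II, 2615725 to 2616219, minus strand, labelled Spermatogenic) were at 45.2 and 48.8 in the control, at 23.3 and 21.3 after depletion and between 0 and 1.77 in the deletion experiment. The siRNAs of linc-66 followed, at 16.7 and 11.5 in the control and between 0.448 and 1.25 in the deletion experiment. linc-22 siRNAs, in the same order but by less, were at 17312 and 16841 in the control and at 12714 and 14055 in the parent.

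Some linc genes stood out for CIP-TAP cloning alone. linc-128 siRNAs were at 66.9 in the control CIP-TAP library (95% interval 59.9 to 74.4) and at 54.7 in the depleted one, 5.50 times the PIR-1 control mean, and its 26G entry was at 29.4 and 33.4 in the same libraries, 40.8 times the PIR-1 control mean. These values rest on 1 library per strain.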
